A study of Caenorhabditis elegans with 2 samples.

Results

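Transfer RNA genes are the 612 genes of biotype tRNA that Ensembl release 115 places on the 6 nuclear chromosomes of Caenorhabditis elegans, out of 46890 nuclear genes, and each was taken with 200 bp on either side. Binding of APTF-2 at these loci was read from ChIP-seq peak lists. APTF-2 belongs to the AP-2 transcription factors and is known from the worm embryo, where it helps the epidermis enclose the body. Chromatin came from whole young adults aged 61.5 h of strain RW12304, in which the endogenous aptf-2 gene on chromosome IV carries the CRISPR allele st12304, a fusion to TY1, EGFP and 3xFLAG. The description of the samples names an antibody against GFP, while their antibody field reads aptf-2. There were 2 biological replicates of a single group. All animals carried the tag, whole animals mix every tissue, and no library without the tag was analysed here. The main list, which the authors made from both replicates, held 892 peaks, and the ranked list behind it held 94866. Each replicate also had a thresholded list of its own, of 350 peaks in replicate 1 and 403 in replicate 2. Signal is the score that the authors' peak caller gave a peak, on an unstated scale, and was compared within a list only. Intervals are 95% Wilson intervals that cover the counting of genes alone, since the depth of sequencing is unknown.

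Transfer RNAs carry amino acids to the ribosome. RNA polymerase III reads their genes from promoter elements that lie inside the gene, called the A box and the B box. The factor TFIIIC binds these boxes and brings TFIIIB to the stretch just upstream of the gene, and TFIIIB recruits the polymerase. A tRNA gene can therefore be read without the upstream promoter that a protein-coding gene needs, and many tRNA genes of C. elegans stand in introns of other genes.

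The sequences that follow, from the RefSeq genome of build WBcel235, show the loci that the signal values below turn on. The first pair had the strongest main-list peak at any tRNA gene, and the second is a tandem pair on X. Both are printed on the plus strand with the tRNA genes in capitals. They span chrIII:11066848-11067098 for W09D6.t2 and W09D6.t1, and chrX:9743589-9743818 for F15G9.t1 and F15G9.t2.
W09D6.t2 and W09D6.t1: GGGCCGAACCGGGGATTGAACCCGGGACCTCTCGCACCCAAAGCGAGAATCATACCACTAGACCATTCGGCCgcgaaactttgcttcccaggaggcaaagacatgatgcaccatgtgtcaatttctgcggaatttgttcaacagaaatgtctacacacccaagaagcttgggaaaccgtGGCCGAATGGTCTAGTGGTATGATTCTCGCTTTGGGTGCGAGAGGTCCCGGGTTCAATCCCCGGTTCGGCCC
F15G9.t1 and F15G9.t2: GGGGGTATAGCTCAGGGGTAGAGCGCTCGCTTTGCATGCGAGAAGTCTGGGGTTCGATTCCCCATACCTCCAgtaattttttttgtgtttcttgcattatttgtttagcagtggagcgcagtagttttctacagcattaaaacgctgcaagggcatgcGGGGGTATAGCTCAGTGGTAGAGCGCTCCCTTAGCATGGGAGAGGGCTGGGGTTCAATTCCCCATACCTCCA
The summit, the position of highest signal in a peak, lay at base 81 of the first stretch and at base 115 of the second. Both positions lie between the genes of a pair.

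The next sequences set tRNA genes with a strong peak beside a gene elsewhere in the genome whose tRNA sequence is the same, base for base, but which had no main-list summit. Each is printed on the strand of the gene with 20 bp of flank on either side, and the core of the B box is in capitals. W09D6.t1 lies at chrIII:11067007-11067118, ZK970.t1 at chrII:10302379-10302490, F15G9.t1 at chrX:9743569-9743680, Y37A1B.t1 at chrIV:14013785-14013896 and the lone gene C40H5.t1 at chrX:11757811-11757934, flanks included. The peaks credited to W09D6.t1 and F15G9.t1 are the pair peaks described above, and their summits lie outside these stretches. The summit of the first pair lay nearer to W09D6.t2.
W09D6.t1: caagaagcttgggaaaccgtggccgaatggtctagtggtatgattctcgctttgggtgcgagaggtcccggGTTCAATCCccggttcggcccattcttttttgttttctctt
ZK970.t1: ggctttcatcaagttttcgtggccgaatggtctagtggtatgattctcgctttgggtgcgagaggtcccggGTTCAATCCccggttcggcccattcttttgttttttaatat
F15G9.t1: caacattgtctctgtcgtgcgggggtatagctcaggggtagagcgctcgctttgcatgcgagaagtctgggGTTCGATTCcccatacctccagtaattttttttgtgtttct
Y37A1B.t1: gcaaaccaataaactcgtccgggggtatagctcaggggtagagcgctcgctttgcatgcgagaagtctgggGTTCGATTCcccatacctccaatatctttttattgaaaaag
C40H5.t1: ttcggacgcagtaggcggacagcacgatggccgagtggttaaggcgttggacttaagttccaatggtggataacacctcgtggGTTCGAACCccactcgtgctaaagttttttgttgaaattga
Within each matched set the printed sequences differ in the flanks only. The B box core starts at base 52 of the gene in the first 4 and at base 64 in C40H5.t1, whose gene is longer.

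A main-list summit lay within 200 bp of 81 of the 612 tRNA genes (13.2%, interval 10.8 to 16.2%). The share over all other annotated nuclear genes was 1.83%, and over short genes of at most 200 bp, leaving out tRNA and piRNA genes, it was 2.9%. The 15363 piRNA genes, of which 0.0325% had a summit, count in the first share and lower it. They also count in the shares over all genes given below. Over protein-coding genes the share was 2.78%. Neighbouring tRNA genes can share a peak: the 81 genes were reached by 72 distinct summits, which make up 8.07% of the main list, and counting neighbours with overlapping windows as 1 locus gave 68 of 529 loci. Of the 81 genes, 15 (18.5%) had their summit in the promoter window of a protein-coding gene, from 1000 bp upstream to 200 bp downstream of a transcript start. Among tRNA genes over 1000 bp from any such start, 54 of 382 (14.1%) had a summit, against 27 of 230 (11.7%) of those nearer.

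The ranked list lists weaker peaks as well. In it 513 of the 612 tRNA genes (83.8%, interval 80.7 to 86.5%) had a summit in the window, where 56.3% of all other genes and 56.9% of the short genes had one. The strongest summit at a tRNA gene had a median signal of 54.0 (quartiles 36.1 and 72.3), while the median of the whole ranked list was 26.7. Counted over all 612 genes, 74.5% had a summit above that list median. The share above the list median was 43.7% over all annotated nuclear genes and 37.0% over short genes of other classes, whose median was 32.9. Protein-coding genes, whose windows are longer, stood at 72.4% above the list median, and 85.4% had a ranked summit, with a median signal of 40.6. A gene with several summits in reach was given its strongest, which raises its value above that of a single listed peak.

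Other classes of short genes gave a wide range of values. RefSeq annotates 209 tRNA pseudogenes, which are copies that no longer encode a working tRNA. Of these, 4 (1.91%, interval 0.747 to 4.82%) had a main-list summit, and their median ranked signal was 32.8. Genes of small nuclear RNAs, the RNA parts of the spliceosome, had a summit at 36 of 129 (27.9%, interval 20.9 to 36.2%). Genes of small nucleolar RNAs, which guide RNA modification, had a summit at 46 of 306 (15.0%, interval 11.5 to 19.5%). MicroRNA genes stood at 1.55% and piRNA genes, the largest short class, at 0.0325%. The snoRNA interval includes the tRNA share, and the snRNA interval lies above it. The differences between these classes were not tested.

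**Figure D1:**
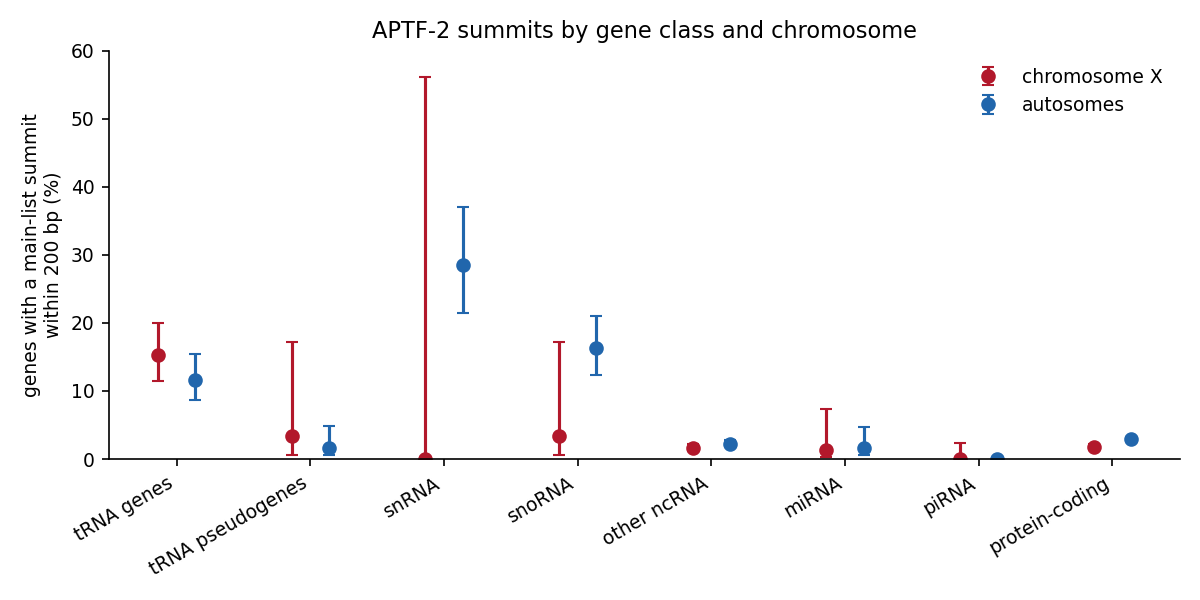
Share of genes with a main-list summit within 200 bp (vertical axis, percent) for tRNA genes, tRNA pseudogenes and 6 other classes, on X (red) and on the autosomes (blue), where points are shares and bars are 95% Wilson intervals. The tRNA genes stood at 15.2% on X and 11.6% on the autosomes, and protein-coding genes at 1.72% and 2.95%.

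Most main-list summits within 200 bp of a tRNA gene lay on the gene itself. Of these 72 summits, 44 (61.1%) fell inside a tRNA gene, 17 upstream and 11 downstream on the gene's strand. Those downstream include weak second summits at C14B9.t1, T26C11.t1 and K11E4.t2, with main-list signals of 3.43, 14.2 and 6.29. Measured from the middle of the nearest tRNA gene, the median position was -22.25 bp, that is toward the 5′ end, with quartiles of -39.75 and 2.5 bp. Within 100 bp of the middle lay 67 summits (93.1%). The median was -28.5 bp over 15 summits in the list of replicate 1 and -17.5 bp over 24 in the list of replicate 2. On X it was -24.0 bp and on the autosomes -21.0 bp, each over 36 summits. In the ranked list a smaller share lay inside a tRNA gene, 249 of 538 summits in reach (46.3%) and 242 of 513 when the strongest of each gene was taken (47.2%). Where a main-list summit had a single tRNA gene in reach, 38 of 60 lay inside the gene. Of the 12 summits that reached several tRNA genes, 6 lay inside one of them and 6 in the stretch between them.

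The flanks of lone tRNA genes, those with no other tRNA gene within 1000 bp, held few main-list summits. Around 376 such genes, 50 main-list summits lay within 200 bp of the middle and 1 lay 600 to 1000 bp away on either side. In the ranked list the density within 200 bp was 2.23 times that in the same flanks. The ratio was 1.36 at tRNA pseudogenes, 1.27 at snoRNA genes and 0.834 at piRNA genes. At snoRNA genes 47 main-list summits lay within 200 bp of the middle and 11 in the flanks.

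**Figure D2:**
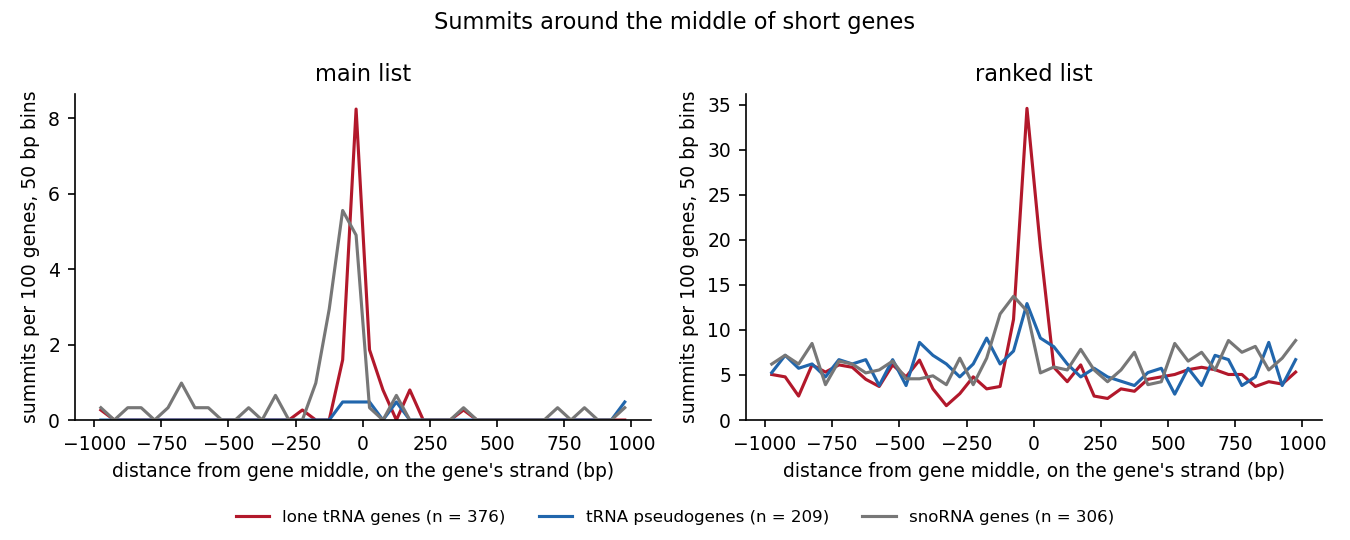
Summits per 100 genes in bins of 50 bp (vertical axis) by distance from the middle of the gene on its strand (horizontal axis, bp), in the main list (left) and the ranked list (right), for lone tRNA genes, tRNA pseudogenes and snoRNA genes. The sharp peak of the tRNA genes stands just 5′ of the middle, where 50 main-list summits lay within 200 bp and 1 in the flanks.

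The X chromosome carries 276 of the tRNA genes (45.1%), although it holds 12.4% of all other nuclear genes. On X, 42 of 276 tRNA genes had a main-list summit (15.2%, interval 11.5 to 19.9%), against 39 of 336 on the autosomes (11.6%, interval 8.61 to 15.5%). The difference of 3.61 percentage points did not pass (two-sided Fisher's exact test, p = 0.231, adjusted p = 0.423 over 3 tests). It was 1.36 points among genes over 1000 bp from a protein-coding start (14.8% on X and 13.4% on the autosomes) and 2.03 points with a window of 100 bp. In the separate lists the shares on X and on the autosomes were 4.35% and 1.79% in replicate 1, and 6.16% and 4.46% in replicate 2. These lists reached 18 and 32 of the 612 genes, where the background over all other genes was 0.698% and 0.823%. The median ranked signal was 54.0 on X and 54.1 on the autosomes, a ratio of 0.998. Among the autosomes the share ran from 5 of 78 genes on V (6.41%) to 11 of 64 on III (17.2%).

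Protein-coding genes and short genes of other classes had a lower share on X than on the autosomes. Of protein-coding genes, 47 of 2731 on X (1.72%) had a summit within 200 bp of the gene, against 508 of 17242 on the autosomes (2.95%). Of short genes other than tRNA and piRNA genes it was 35 of 2193 (1.60%) on X and 185 of 5392 (3.43%) on the autosomes. The mix of classes in this set differed, with 3 snRNA and 29 snoRNA genes on X and 126 and 277 on the autosomes. Among its other short ncRNA genes alone the shares were closer, 32 of 2015 (1.59%) on X and 98 of 4322 (2.27%) on the autosomes. The part of this mix in the difference was not tested. The few tRNA pseudogenes went the other way, with 1 of 29 on X (3.45%) and 3 of 180 on the autosomes (1.67%). The odds ratio of X over autosomes was 1.37 for tRNA genes, 0.577 for protein-coding genes and 0.456 for the short genes. The tRNA genes differed from both (Tarone's chi-square test of equal odds ratios, adjusted p = 0.00212 against protein-coding genes and 0.000468 against short genes, over 2 tests). These tests take genes as units, and neighbours that share a summit are not independent. A summit at a tRNA gene in a host intron also counted for the protein-coding host, so the 2 sets share summits. Such tRNA genes with a summit numbered 13 on X and 20 on the autosomes. With neighbouring tRNA genes merged to loci, the adjusted p was 0.00195 and 0.000458. Of the 114 main-list summits on X, 36 (31.6%) lay at a tRNA gene, against 36 of 778 on the autosomes (4.63%). This contrast also reflects where tRNA genes lie, since they are 276 of the 6022 genes on X and 336 of the 40868 on the autosomes.

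Of the 612 tRNA genes, 286 (46.7%) lay whole inside an intron of a protein-coding gene, in 223 host genes. Such genes were less frequent on X (95 of 276, 34.4%) than on the autosomes (191 of 336, 56.8%). In host introns 33 of 286 had a summit (11.5%, interval 8.34 to 15.8%), against 48 of 326 outside (14.7%, interval 11.3 to 19.0%). This difference of -3.19 points did not pass (Fisher's exact test, p = 0.282, adjusted p = 0.423). It shrank to -0.27 points in the list of replicate 1 (2.80% in introns and 3.07% outside), -0.63 points in that of replicate 2 (4.90% and 5.52%) and -0.73 points with a window of 100 bp. On X the shares were 13.7% in introns and 16.0% outside, and on the autosomes 10.5% and 13.1%. The median ranked signal was 50.8 in host introns and 56.8 outside. Where the tRNA gene ran on the same strand as its host, 14 of 163 had a summit (8.59%), and where it ran on the opposite strand, 19 of 122 (15.6%). Same-strand intronic genes against all other tRNA genes gave 8.54% and 15.0% (Fisher's exact test, p = 0.0429, adjusted p = 0.129), which did not pass after adjustment. In the list of replicate 2 the order was turned round, with 5.52% on the same strand and 4.10% on the opposite strand.

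**Figure D3:**
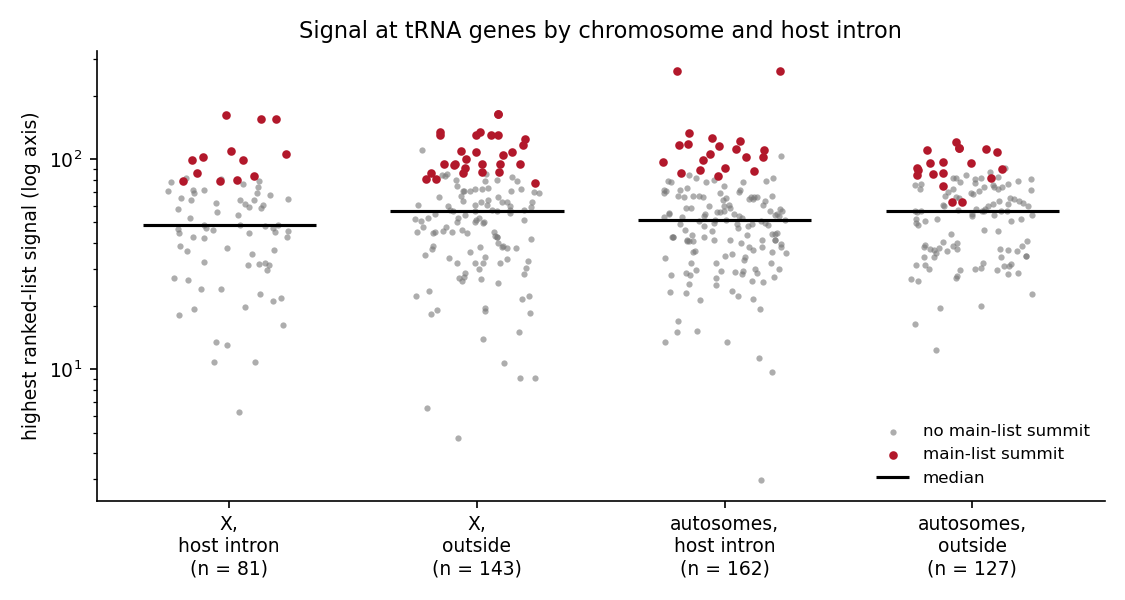
Highest ranked-list signal at each tRNA gene (vertical log axis) for genes on X and on the autosomes, in host introns and outside, where each point is a gene, red points have a main-list summit and lines are medians. The medians lie at 48.8 and 56.5 on X in introns and outside, and at 51.1 and 56.9 on the autosomes, so the groups overlap over nearly their whole range.

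Clustered and lone tRNA genes had close shares in the main list. Another tRNA gene lay within 1000 bp of 236 genes (38.6%), in 100 clusters, of which 78 were pairs, 14 had 3 genes and 8 had more, up to 6. Clustering was more frequent on X (48.9%) than on the autosomes (30.1%). A summit was found at 32 of 236 clustered genes (13.6%) and 49 of 376 lone genes (13.0%), a difference of 0.53 points (Fisher's exact test, p = 0.903, adjusted p = 0.903). Its direction turned with the other thresholded list, a narrower window or merged loci. It was wider in the lists of single replicates, with 4.24% of clustered and 2.13% of lone genes in replicate 1, and 7.20% and 3.99% in replicate 2. Genes that share a summit were each counted, which raises the share of clustered genes. Of the summits at tRNA genes, 6 of 15 in replicate 1 and 8 of 24 in replicate 2 reached more than 1 tRNA gene. In the main list it was 12 of 72. With clusters joined at 500 bp 28 of 170 clustered genes and 53 of 442 others had a main-list summit, and none of these differences passed. Genes in pairs had a summit at 28 of 156 (17.9%) and genes in larger clusters at 4 of 80 (5.0%), a split made after the values were seen and not tested. The 28 genes came from 17 summits and the 4 genes from 3, so sharing widens this contrast. Among the 78 pairs, a summit was found at 6 of 15 convergent, 7 of 37 divergent and 3 of 26 tandem pairs. Their median ranked signals were close, at 62.2, 61.3 and 59.8.

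All isotypes other than glutamine, tryptophan and selenocysteine had at least 1 gene with a main-list summit. In the main list lysine tRNA genes came first, with 10 of 46 (21.7%, interval 12.3 to 35.6%), followed by tyrosine with 4 of 19 (21.1%) and glutamate with 8 of 41 (19.5%). The order was another in the lists of single replicates, where proline came first with 4 of 42 genes in replicate 1 and 7 of 42 in replicate 2. Lysine had 1 and 3 of 46 there, and tyrosine none of 19 in either. Genes that share a summit were each counted: in the main list 7 proline genes came from 4 summits and 10 lysine genes from 10. None of 27 glutamine tRNA genes had a main-list summit, which allows a share of up to 12.5% by the Wilson interval. None of 12 tryptophan tRNA genes did either, with an upper bound of 24.2%, nor did the lone selenocysteine tRNA gene or the 5 genes with no isotype in RefSeq. In the ranked list 21 glutamine tRNA genes had a summit, with a median signal of 56.8 and a highest of 84.7, near the median of all tRNA genes. The intervals of the other isotypes include the 13.2% of all tRNA genes, and differences among isotypes were not tested.

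**Figure D4:**
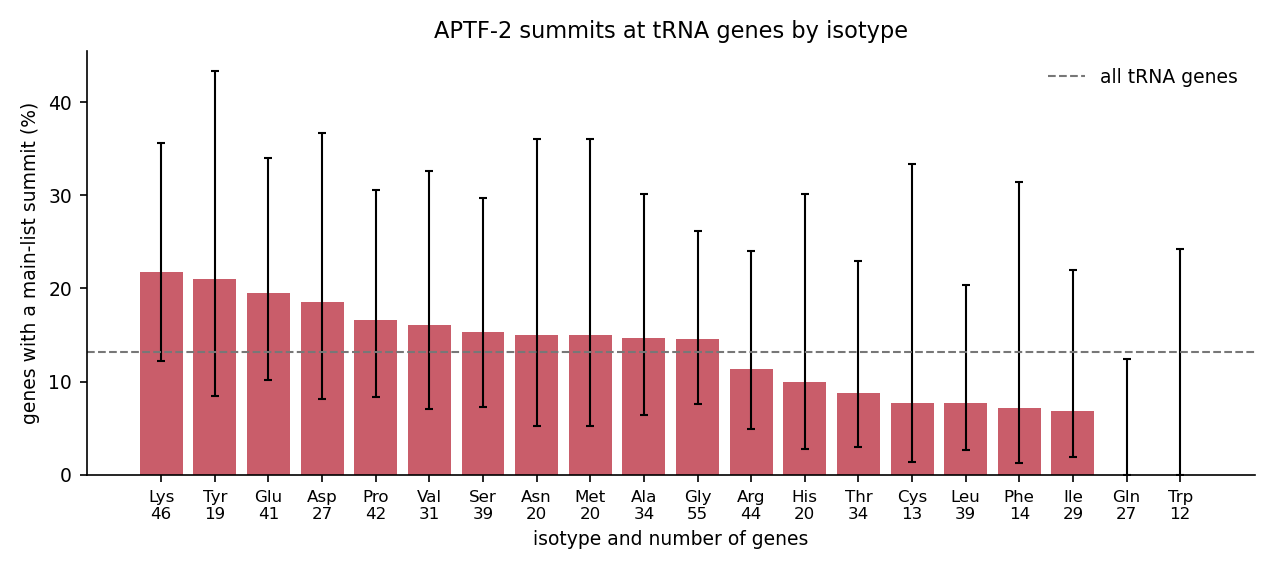
Share of tRNA genes with a main-list summit (bars, percent) by isotype, with the number of genes under each name, 95% Wilson intervals as lines and the share of all tRNA genes as a dashed line at 13.2%. The bars run from 21.7% for lysine to 0% for glutamine and tryptophan. The intervals of lysine (12.3 to 35.6%) and glutamine (0 to 12.5%) barely overlap, and that of glutamine lies below the dashed line. The other intervals include the dashed line.

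The 612 genes held 200 distinct sequences, and 469 had at least 1 identical copy. Among 29 glycine tRNA genes of the same sequence, the largest family, 4 had a main-list summit and the ranked signal ran between 4.71 and 163.7, with 2 genes having no summit. Among the 24 identical proline tRNA genes, 5 had a main-list summit and the signal ran between 13.5 and 262.1. Among the 8 copies of the F15G9.t1 sequence, 2 had a main-list summit and the signal ran between 12.3 and 154.9. ZK970.t1 and Y37A1B.t1, printed above, had no summit in the ranked list made from both replicates. ZK970.t1 was listed in the ranked list of replicate 2 at 23.1 and Y37A1B.t1 in that of replicate 1 at 25.6. Signal thus differed widely between genes of the same sequence. A value can come from a summit shared with a neighbour. The summit with 163.7 lay nearest to the glutamate gene M02F4.t2, not to the glycine gene M02F4.t1. A main-list summit was found at 12 of 143 single-copy genes (8.39%), 22 of 152 with 2 to 9 copies (14.5%) and 47 of 317 with 10 or more (14.8%), and these shares were not tested. Because copies are identical, reads wholly within the gene cannot be placed on 1 copy, while flanks can tell them apart: of stretches of 31 bp a median of 0% in the gene and 87.4% in the window occurred once in the genome. How reads with several matches were placed is not stated in the sources used here, and its part in these values was not tested. All 81 genes had windows of which at least 50% occurred once, and of the 17 genes with less, none had a main-list summit.

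The strongest locus was the proline pair W09D6.t2 and W09D6.t1, which run apart from each other in an intron of rsa-2, a gene of spindle assembly, on chromosome III. Their shared summit at position 11066928 had a main-list signal of 262.1, with 148.4 in the list of replicate 1 and 115.0 in that of replicate 2. It ranked 61 among the 892 main-list peaks, so stronger peaks lay elsewhere in the genome. The strongest on X was the divergent pair of a glutamate and a glycine tRNA gene, M02F4.t2 and M02F4.t1, with 163.7 in the main list, 83.1 in replicate 1 and 89.9 in replicate 2. F41D9.t3, an asparagine tRNA gene in an intron of sulp-3, had 163.0 in the main list and 76.8 in the list of replicate 2. It had no summit in the thresholded list of replicate 1, although the ranked list of that replicate gave it 85.8.

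The alanine pair F15G9.t1 and F15G9.t2 runs in tandem in an intron of him-4, which encodes the matrix protein hemicentin. It had 154.9 in the main list, 65.4 in replicate 1 and 82.1 in replicate 2. The divergent glycine pair T10B10.t2 and T10B10.t1 on X had 130.9, 55.9 and 64.7. The leucine gene C40H5.t1 had 125.1, 61.6 and 58.8, with its summit on the first base of the gene. Leaving out F41D9.t3, the genes of these loci, 9 in all, were the ones with a summit in the main list and in the thresholded lists of both replicates, and all but the proline pair lie on X. Except for C40H5.t1 they are pairs that share a summit, so they stand for fewer separate peaks. Of all main-list tRNA genes, 42 of 81 lie on X.

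Of the 81 genes, 9 were in both replicate lists, 8 in that of replicate 1 alone, 17 in that of replicate 2 alone and 47 in neither. The median main-list signal was 154.9 for the first kind and 90.2 for the last. In the ranked lists 79 of the 81 genes had a summit in both replicates, a count largely set by the main list having been made from both. Peaks left out of a replicate list were not always weaker. F35H8.t1 had 69.2 in the ranked list of replicate 1 and was not in its thresholded list, where T10B10.t2 had 55.9. Across the 345 tRNA genes with a ranked summit in both replicates, signal correlated, with Spearman's rho at 0.434 and, for log10 values, Pearson's r at 0.461. This describes genes, not samples, and paired neighbours share summits. The other thresholded list from both replicates reached 79 tRNA genes, of which 66 were also in the main list.

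**Figure D5:**
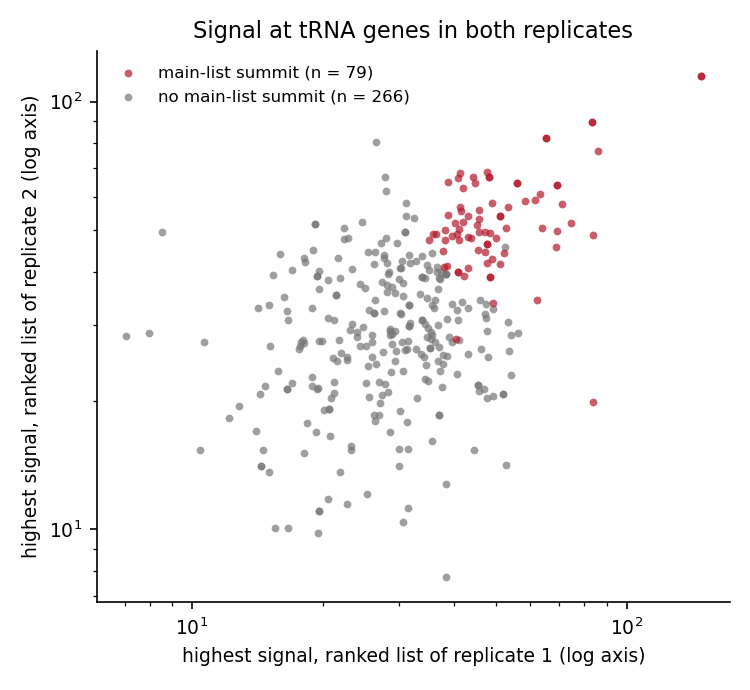
Highest signal at each tRNA gene in the ranked list of replicate 1 (horizontal log axis) and replicate 2 (vertical log axis), for the 345 genes with a summit in both, of which 79 have a main-list summit (red). Red points gather at the upper right and grey points spread below and to the left, with a Spearman rho of 0.434.

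The order by signal and membership of the main list did not coincide. The weakest members in it were Y22D7AL.t3 and Y22D7AL.t4, a methionine and a glutamate tRNA gene that share a summit of signal 62.2 and an IDR score of 837. The IDR score measures how reproducibly a peak ranked in both replicates, to a highest value of 1000, and the lowest in the main list was 830. The strongest gene outside the list was W03G11.t1, a lysine tRNA gene on X, with a ranked signal of 111.0 and an IDR score of 502. Its replicates differed, with 26.5 in the ranked list of replicate 1 and 80.5 in that of replicate 2. The glycine genes Y82E9BR.t1 and Y43D4A.t1 had 103.9 and 90.8, with 27.8 and 27.9 in replicate 1 and 66.6 and 61.7 in replicate 2. The alanine gene ZK622.t1 had 86.9 and an IDR score of 759, with 47.4 in replicate 1 and 31.9 in replicate 2. No tRNA gene without a main-list summit had an IDR score of 830 or more. This count was largely set by the main list having been thresholded by IDR.

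Short sequence patterns were counted as a description of the loci. The core of the B box, written GTTCNANNC and read on the gene's strand, was in 587 of 612 tRNA genes (95.9%), 165 of 209 tRNA pseudogenes (78.9%) and 18 of 612 stretches of the same length 2000 bp away, searched on both strands (2.94%). A main-list summit was found at 77 of 587 tRNA genes with the core (13.1%) and 4 of 25 without it (16.0%). The palindrome GCCNNNGGC, which AP-2 proteins are known to bind in vertebrates, was searched on both strands of the windows. It was in 5 of 81 windows with a main-list summit (6.17%), 30 of 531 without (5.65%) and 18 of 612 windows of the same length 2000 bp away (2.94%). The first and second shares lay within each other's intervals, 2.67 to 13.6% and 3.99 to 7.95%.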

How the data were processed

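Peaks of APTF-2 ChIP-seq from 2 biological replicates with 1 technical replicate each were taken as deposited by the authors. Per the README text deposited with the samples, the lists are on assembly ce11 (WBcel235) and were ranked or thresholded by IDR. Thresholded lists drew on 1 more file of unstated content. No source used here names the peak caller or the aligner. Signal and IDR values in the deposited lists are scores of the authors' software, compared within a list only. Depth is unknown, and its effect on which peaks were listed was not tested. P-values take genes as units and say nothing of the spread between replicates.

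All 612 tRNA genes of Ensembl release 115 matched RefSeq by WormBase ID with the same coordinates, and RefSeq gave the isotypes and pseudogenes. Peak ends lay within the lengths of all 6 chromosomes. A gene had a summit where one lay within 200 bp of its ends. Clusters joined genes at most 1000 bp apart. Shares were compared with 3 two-sided Fisher's exact tests, with Benjamini-Hochberg adjustment and 0.05 as the threshold. The comparison of odds ratios (Tarone's test) and the restriction to genes over 1000 bp from a protein-coding start were added after the data were seen. The scripts were tested on simulated summits. Alternatives covered other lists, each replicate, windows, merged loci and unique windows. Python 3.11.15, NumPy, pandas, SciPy 1.17.1, statsmodels and matplotlib were used.

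Members, lists and tests were chosen with earlier results of these data known. Named genes were those of highest ranked signal with a summit in the main list and in both replicate lists (9 of the 12 allowed). Also named were the 4 highest on X, in host introns and without a main-list summit, and the most and least unique of the first kind. The genes of 3 clusters with 2 bound members each were named too. Other clusters also had 2, the highest number, and these 3 had the strongest ranked signal among them. The weakest main-list genes and the identical copies were named after their values were seen.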

Additional observations from a re-analysis of the deposited data

Results flagged for a closer look

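The share of tRNA genes with a main-list summit was higher on X than on the autosomes, while the shares of protein-coding genes and of other short genes were lower on X. The odds ratio of X over autosomes at tRNA genes was 2.37 times that at protein-coding genes and 2.99 times that at short genes other than tRNA and piRNA genes. Both differences passed Tarone's test of equal odds ratios. The short genes on X included few snRNA and snoRNA genes, and among other short ncRNA genes alone the shares were 1.59% on X and 2.27% on the autosomes. Summits at tRNA genes in host introns also counted for their protein-coding host genes. The difference between X and autosomal tRNA genes did not pass a test of its own. Against protein-coding genes the ratio was 9.89 in the list of replicate 1, where 8 protein-coding genes on X had a summit, and 2.49 in that of replicate 2. Against short genes it was 4.41 and 2.85. These ratios came from a comparison added after the data were seen.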

How the results depend on the processing

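The number of tRNA genes with a summit was 81 in the main list, 36 when the stronger 50% of its peaks were kept, and 18 to 32 in the list of a single replicate, which lists fewer peaks. It ran from 73 to 83 genes under the alternatives in lists, windows, overlap and unique windows, and was 54 of 382 genes far from a protein-coding start. Merging neighbours gave 68 of 529 loci. The comparisons of X with autosomes and of host introns with the outside kept their direction and did not pass under any alternative run, with differences of 1.36 to 4.87 points for X and -6.42 to -0.27 points for host introns. The difference between clustered and lone genes reversed to -1.01 points with the other thresholded list, -1.48 points with a window of 100 bp and -0.61 points with merged loci. The share of tRNA genes with a ranked summit above the list median was 80.7% by peak overlap, 65.2% in a window of 100 bp and 58.2 to 58.5% in the list of a single replicate, against 74.5%. The ratio of median ranked signal on X to autosomes, 0.998, became 1.04 to 1.06 in single replicates and 1.03 in the other ranked list. The difference in odds ratios of X over autosomes passed in all 6 alternatives against either class, at 1.87 to 9.89 times for protein-coding genes and 2.75 to 4.41 times for short genes. The median summit position stayed between -28.5 and -17.5 bp. Unknown depth, whole animals and the lack of an untagged library limit all values.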
